A study of Mus musculus with 4 samples.

Results

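Mast cells are tissue-resident immune cells that store proteases, histamine and proteoglycans in granules and release them when surface receptors are engaged. Their granule proteases fall into tryptases, which cut after basic residues, chymases, which often cut after aromatic residues, and a carboxypeptidase that trims C-terminal residues. In the mouse gut, connective-tissue-type mast cells of the deeper wall and mucosal mast cells of the epithelium differ in which of these proteases they store. The genes described here are 7 such proteases, chosen by gene symbol: the tryptases Tpsab1 and Tpsb2, the carboxypeptidase Cpa3, and the chymase genes Cma1, Mcpt1, Mcpt2 and Mcpt4. A probe counted as a member when the platform annotation gave it exactly 1 symbol and that symbol was one of the 7. This gave 7 probes for 6 of the genes, out of 33012 probes on the array, and no probe carried Mcpt4 as its only symbol. The choice used names and whether a probe was present, and was made with earlier results of these data known, so blank cells and their pattern are described without a test.

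RNA was measured in the stomach of male, chow-fed mice that had been food deprived for 4 h, on single-colour microarrays. The B6.CAST-17 congenic mice were homozygous for the congenic interval that gives the strain its name, by that name a part of chromosome 17 of CAST origin on a B6 background, and the wild-type mice were C57BL/6J. Each strain was represented by 2 arrays, each hybridised with a pool of equal amounts of RNA from 3 mice, so 6 mice per strain stand behind 4 arrays. The series' title concerns expression of Glp1r, a chromosome 17 gene, and gastric emptying, and strain was the only contrast. Whether the congenic interval reaches the tryptase genes is not given in the sources used here.

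A log2 signal was present for 16954 and 16871 probes in congenic pools 1 and 2, against 16320 and 16326 in wild-type pools 1 and 2. The remaining cells are blank, and the rule behind a blank is not given in the sources used here. A value on all 4 arrays was present for 13475 probes, and these were compared with limma. Of these 64 (0.475%) passed a Benjamini-Hochberg adjusted p of 0.05, and leaving out 1 pool gave 15 (congenic pool 1 left out), 27 (congenic pool 2), 61 (wild-type pool 1) or 168 (wild-type pool 2). Differences are congenic minus wild type in log2 signal, ± SE with n = 2 pools per strain, and signals of different probes are not on a common scale. The stomach's own defining genes read high in every pool: Atp4a, Atp4b, Cblif, Gkn1, Gkn2, Gast and Tff2, all of the stomach list that were measured, had array medians between 19.29 and 19.79.

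Tpsab1, the gene of the tryptase mMCP-7 in strains where it is protein coding, was the only member with a probe that had blank cells. Its probe (742202) read 11.91 and 11.99 in congenic pools 1 and 2 (mean 11.95 ± 0.057, SD, n = 2), against no value in either wild-type pool. Both congenic values therefore stand without a wild-type value beside them, and no fold change or test was possible. In the congenic pools the probe read above 44.7% and 45.5% of all values on its array. It lay below the median of the compared probes, which was 12.82 in both congenic pools. A blank does not show that a transcript is absent, since signal over background is unknown here.

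The pattern was set against all other probes. Of the 15101 probes with a value in both congenic pools, 419 (2.77%) had none in either wild-type pool, and the reverse held for 198 of the 14292 probes with both wild-type values (1.39%). Both wild-type arrays had more blank cells in all than either congenic array. Most of the 419 were dim, with a median congenic mean of 9.91, and 10 of them (2.39%), Tpsab1 included, had a congenic mean at or above that of Tpsab1. Among probes with a congenic mean within 0.5 log2 of Tpsab1, 2644 of 2773 had both wild-type values, 111 had 1 and 18 (0.649%) had none. Of 2648 probes with a wild-type mean in that range, 12 (0.453%) had no congenic value. On chromosome 17 it was seen for 9 of 418 named probes with both congenic values (2.15%), against 163 of 8263 on other chromosomes (1.97%).

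**Figure D1:**
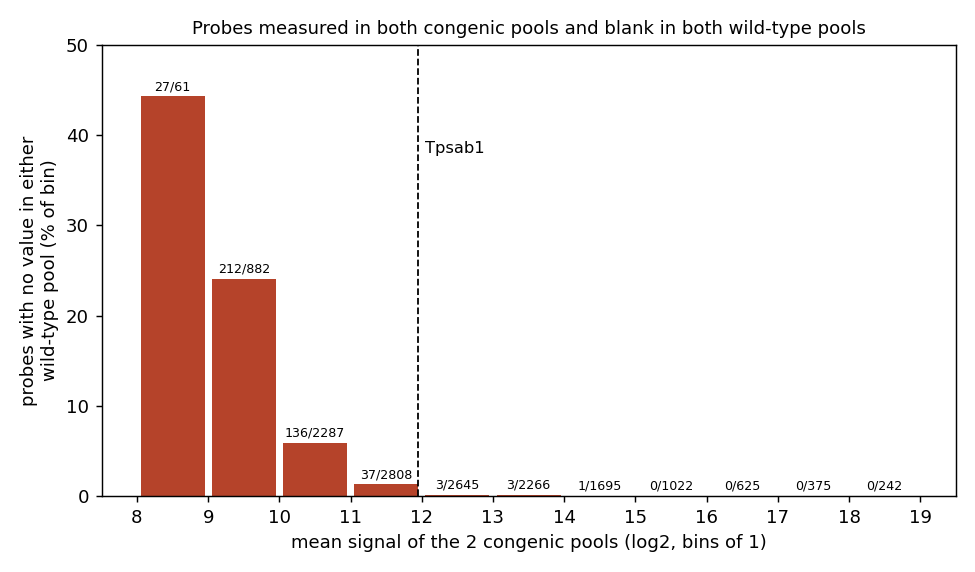
Share of probes, among those with a value in both congenic pools, that had no value in either wild-type pool (y axis, % of the bin), by their mean congenic signal (x axis, log2, bins of 1); the numbers over the bars give both counts. The share was 44.3% between 8 and 9 and 1.32% between 11 and 12, the bin that holds Tpsab1 (dashed line at 11.95).

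The reference annotation treats Tpsab1 unlike the other members. In the RefSeq gene table of the C57BL/6J assembly GRCm38.p6, Tpsab1 is classed as a transcribed pseudogene, while Tpsb2, Cpa3, Cma1, Mcpt1 and Mcpt2 are protein coding. The array's annotation ties the Tpsab1 probe to an mRNA record that is not among the transcripts of that table, whereas the records of the other 5 measured genes are. Where on the transcript the probe lies, and whether the 2 strains share its target bases, was not tested.

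Tpsb2, the neighbouring tryptase gene known as mMCP-6, was measured on all arrays (probe 505868). It read 15.96 and 16.43 in congenic pools 1 and 2, against 16.30 and 16.08 in wild-type pools 1 and 2. The 2 wild-type values lay between the 2 congenic values, so the strains overlapped fully. The difference was 0.0059 ± 0.16 (95% interval -0.39 to 0.40; limma adjusted p = 0.9897), and its sign changed without congenic pool 2 (-0.22) or without wild-type pool 2 (-0.11). Tpsab1 and Tpsb2 are neighbouring tryptase-family genes, and how far each probe also reads the other's transcript was not tested.

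**Figure D2:**
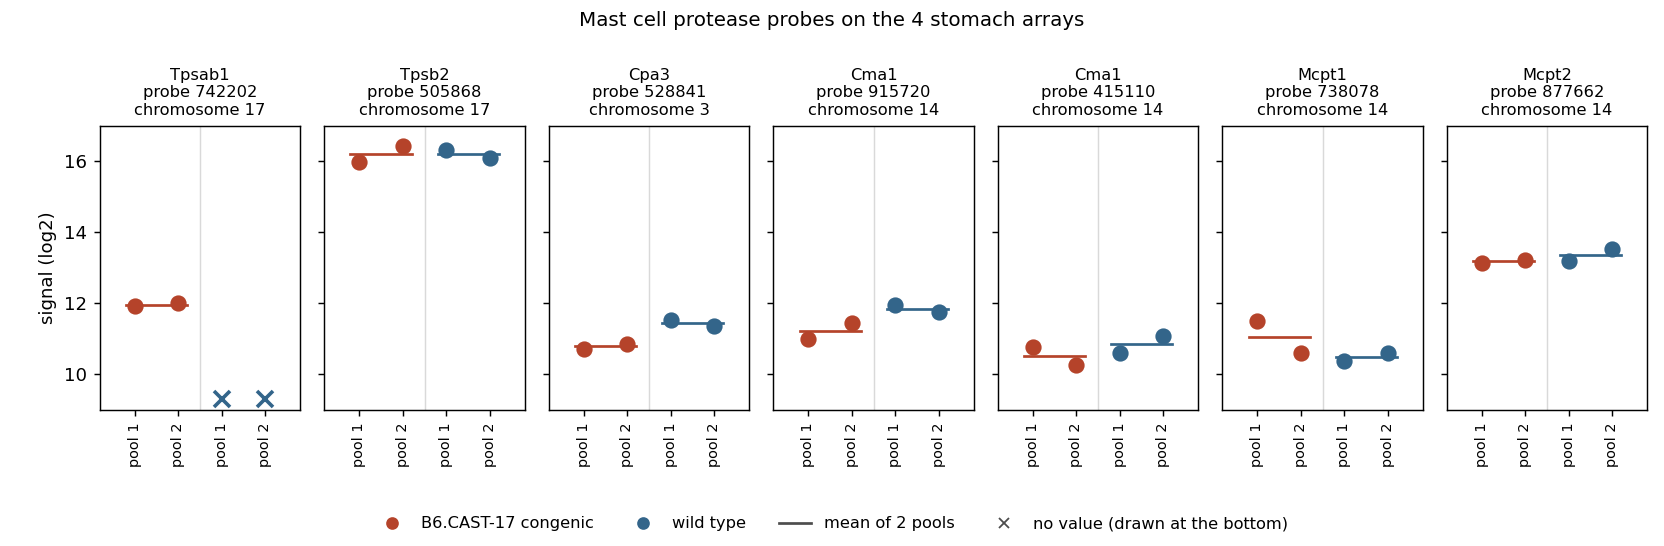
Signal (y axis, log2) of the 7 mast cell protease probes in each pool (x axis), with congenic pools in red and wild-type pools in blue; horizontal lines are means of 2 pools, and crosses mark arrays with no value. Tpsab1 has values in the congenic pools and none in the wild-type pools, Tpsb2 overlaps between the strains, and Cpa3 and the Cma1 probe 915720 lie lower in both congenic pools.

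None of the 6 member probes with a value on all arrays, which cover 5 genes, passed in limma (adjusted p between 0.2063 and 0.9897; 0.475% of all probes passed). An unadjusted p under 0.05 was reached by 2 of 6, against 15.8% of all probes. The pools of the strains did not overlap for the same 2 probes, Cpa3 and one of the Cma1 probes, against 49.4% of all probes, and both lay lower in the congenic pools, as 26.1% of all probes did without overlap. The median difference over the 6 probes was -0.25, and over all probes -0.0020, and 2 were higher and 4 lower in the congenic pools. Leaving out a congenic pool gave a median of -0.27 (pool 1) or -0.22 (pool 2), and leaving out a wild-type pool gave -0.44 (pool 1) or -0.099 (pool 2). It was -0.084 over the 2 probes left when dim probes were left out. The number with an unadjusted p under 0.05 was 1 when pool 1 of either strain was left out, 3 when congenic pool 2 was and 2 when wild-type pool 2 was. With so few probes these counts are a description of the members.

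Cpa3 encodes the mast cell carboxypeptidase, which is stored together with Cma1 in connective-tissue-type granules. Its probe (528841) read 10.71 and 10.86 in congenic pools 1 and 2, against 11.53 and 11.36 in wild-type pools 1 and 2. Both congenic values lay below both wild-type values, and within each strain the pools differed by at most 0.17. The difference was -0.66 ± 0.18, a signal 1.58-fold lower in the congenic pools (95% interval -1.10 to -0.22 log2; limma adjusted p = 0.2063). It lay between -0.75 and -0.58 when any 1 pool was left out. The Cpa3 difference did not pass in limma, and no cause of it was tested. In bulk stomach RNA, fewer mast cells and less RNA per mast cell cannot be told apart.

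Cma1 encodes the chymase known as mMCP-5 and had 2 probes. Probe 915720 read 10.99 and 11.44 in congenic pools 1 and 2, against 11.93 and 11.76 in wild-type pools 1 and 2. Both congenic values were below both wild-type values, with a difference of -0.63 ± 0.20 (95% interval -1.12 to -0.13; limma adjusted p = 0.2471). Leaving out a congenic pool gave -0.40 (pool 1) or -0.85 (pool 2), and leaving out a wild-type pool gave -0.54 (pool 1) or -0.71 (pool 2). Probe 415110 read 10.76 and 10.25 in the congenic pools, against 10.60 and 11.07 in the wild-type pools. Here the strains overlapped, since congenic pool 1 read above wild-type pool 1, and the difference was -0.33 ± 0.28 (95% interval -1.03 to 0.37; limma adjusted p = 0.6014). The probes shared a sign but not the separation of the pools, and the difference of probe 415110 shrank to -0.071 without congenic pool 2 and to -0.093 without wild-type pool 2, and grew to -0.59 without congenic pool 1 and to -0.57 without wild-type pool 1. Averaged over both probes the Cma1 difference was -0.48.

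Mcpt1 and Mcpt2 encode chymase-family proteases typical of mucosal mast cells. Mcpt1 (probe 738078) read 11.49 and 10.60 in congenic pools 1 and 2, against 10.38 and 10.60 in wild-type pools 1 and 2. Congenic pool 1 stood alone above the other arrays, and congenic pool 2 read the same as wild-type pool 2 to the second decimal. The difference was 0.55 ± 0.33 (95% interval -0.25 to 1.35; limma adjusted p = 0.4525), and was 0.11 without congenic pool 1 and 1.00 without congenic pool 2. Mcpt2 (probe 877662) read 13.13 and 13.21 in the congenic pools, against 13.17 and 13.52 in the wild-type pools. Its strains overlapped, with wild-type pool 2 as the highest array, and its difference was -0.17 ± 0.14 (95% interval -0.51 to 0.16; limma adjusted p = 0.5679). It was -0.0014 without wild-type pool 2 and -0.35 without wild-type pool 1. Mcpt1 had the widest range of any member over the arrays, 1.11 log2. Among 7901 other named probes, Brf2, Casp8ap2 and Kif3a had the pattern most like it over the 4 arrays, at root mean square distances of 0.043, 0.054 and 0.069 log2.

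Windows from 250 bases before to 50 after the gene start were listed in RefSeq for 4 of the 7 genes: Cpa3, Cma1, Mcpt1 and Mcpt4. They are shown because the strains did not overlap for the Cpa3 probe and Cma1 probe 915720, though they did for Cma1 probe 415110. Mcpt1 and Mcpt4 are shown as gene copies of which only Mcpt1 has a member probe. GATA factors, among them Gata2, are known regulators of mast cell genes, and the capitals mark every match to GATAA on either strand (TTATC when read on the other strand). The sequences are from the C57BL/6J assembly GRCm38.p6, each 5' to 3' on the gene's strand: Cpa3 at chr3:20242132-20242431 (minus strand), Cma1 at chr14:55944626-55944925 (minus), Mcpt1 at chr14:56017714-56018013 (plus) and Mcpt4 at chr14:56062261-56062560 (minus).
Cpa3: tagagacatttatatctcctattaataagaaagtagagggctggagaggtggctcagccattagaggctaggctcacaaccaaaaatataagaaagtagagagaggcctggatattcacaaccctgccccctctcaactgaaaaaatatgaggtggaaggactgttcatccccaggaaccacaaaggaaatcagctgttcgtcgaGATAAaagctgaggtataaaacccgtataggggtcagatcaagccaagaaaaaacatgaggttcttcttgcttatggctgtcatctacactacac
Cma1: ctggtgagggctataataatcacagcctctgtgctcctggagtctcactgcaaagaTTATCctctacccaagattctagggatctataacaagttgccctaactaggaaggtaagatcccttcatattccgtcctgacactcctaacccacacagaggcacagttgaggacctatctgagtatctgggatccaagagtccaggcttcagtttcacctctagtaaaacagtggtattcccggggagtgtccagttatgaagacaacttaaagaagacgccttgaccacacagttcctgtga
Mcpt1: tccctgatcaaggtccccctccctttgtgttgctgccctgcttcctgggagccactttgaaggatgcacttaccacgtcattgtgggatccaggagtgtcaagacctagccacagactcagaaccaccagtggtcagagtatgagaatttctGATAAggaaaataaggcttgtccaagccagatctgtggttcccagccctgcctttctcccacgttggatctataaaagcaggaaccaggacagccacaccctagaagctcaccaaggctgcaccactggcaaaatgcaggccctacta
Mcpt4: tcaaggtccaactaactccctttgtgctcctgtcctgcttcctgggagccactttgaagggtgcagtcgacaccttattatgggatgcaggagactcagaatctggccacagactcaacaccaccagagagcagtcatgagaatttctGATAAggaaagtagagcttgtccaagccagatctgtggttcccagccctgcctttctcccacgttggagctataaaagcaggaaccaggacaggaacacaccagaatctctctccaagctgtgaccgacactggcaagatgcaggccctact
Each window held 1 match, which begins 45 bases before the start in Cpa3, 194 in Cma1 (as TTATC), 98 in Mcpt1 and 102 in Mcpt4. Of all 32851 windows of this length, 25.4% held GATAA on either strand. TATAAA, the core of a TATA box, was found on the gene's strand 31 bases before the start in Cpa3, 28 in Mcpt1 and 32 in Mcpt4, and on neither strand in Cma1. Cpa3 also held it on the opposite strand, 242 bases before the start, no match overlapped a GATAA match, and 13.6% of all windows held TATAAA on either strand. The Mcpt1 and Mcpt4 windows were identical at 81.4% of 312 aligned positions, whereas every other pair of these windows lay between 48.8% and 52.1%. A match is a string of letters and not a shown binding site. Gata2 itself (probe 298631) differed by 0.034 ± 0.14 (limma adjusted p = 0.9231). A link between the matches and the member values was not tested.

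Other mast cell genes were read from a list of 22, which covers receptors, mediator enzymes and regulators outside the protease genes. Of these 18 had a probe, 7 were measured on all arrays, 6 on some and 5 on none. None of the 7 passed in limma, none had an unadjusted p under 0.05, and 3 were higher and 4 lower in the congenic pools, with a median of -0.092. Kit, the receptor for stem cell factor that mast cells need to survive, read 13.47 and 13.51 in congenic pools 1 and 2, against 12.69 and 13.40 in wild-type pools 1 and 2. Wild-type pool 1 was the low array, the difference was 0.44 ± 0.22 (limma adjusted p = 0.3957), and it was 0.087 without wild-type pool 1 and 0.80 without wild-type pool 2. Kit also marks the pacemaker cells of the gut wall, and of their other markers Etv1 differed by 0.43 ± 0.22 (0.12 without congenic pool 2 and 0.75 without congenic pool 1) and the chloride channel gene Ano1 by 0.068 ± 0.069. Hdc, which makes histamine, differed by -0.20 ± 0.12, Slc18a2, the transporter that loads amines into vesicles, by -0.16 ± 0.15, and Srgn, the core protein of granule proteoglycan, by -0.092 ± 0.10. When 1 pool was left out, Hdc lay between -0.28 (congenic pool 2 left out) and -0.11 (congenic pool 1), Slc18a2 between -0.27 (wild-type pool 1) and -0.061 (wild-type pool 2), and Srgn between -0.16 (wild-type pool 1) and -0.021 (wild-type pool 2). Hdc and Slc18a2 are also used by histamine-storing endocrine cells of the stomach, whose granule protein gene Chgb differed by -0.32 ± 0.078 (limma adjusted p = 0.1859).

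Other than Kit, the receptor genes of the list that had a probe were blank on most or all arrays. Fcer1g, Mrgprb1 and Il1rl1 had no probe with a single symbol. Fcer1a, the alpha chain of the IgE receptor, had a value in congenic pool 2 alone (10.80), and Ms4a2, its beta chain, in wild-type pool 1 alone (9.21). Mrgprb2, a mast cell receptor for basic secretagogues, and the regulator Mitf had no value on any array. The sum of the log2 values of the 7 measured genes, which serves only to compare arrays, was 89.9 and 90.5 in congenic pools 1 and 2, against 89.5 and 91.4 in wild-type pools 1 and 2. The sums of the strains overlapped. Rgs13, a signalling regulator of mast cells, had no value in wild-type pool 1 and read 12.59, 12.51 and 12.87 in congenic pools 1 and 2 and wild-type pool 2.

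**Figure D3:**
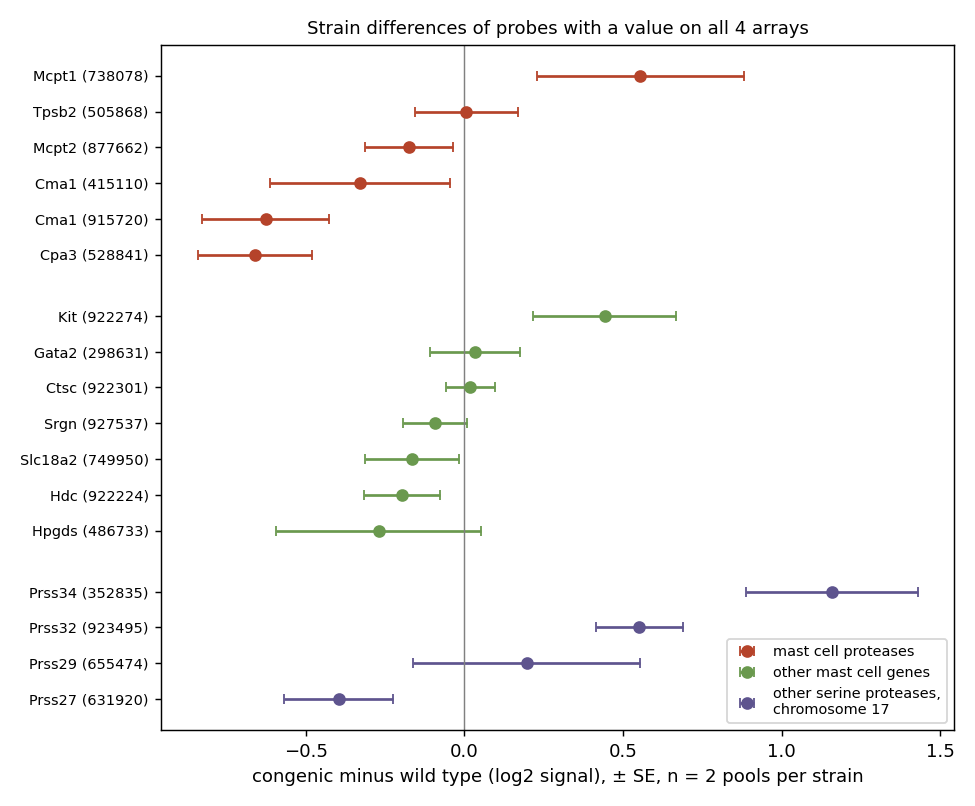
Strain differences (x axis, congenic minus wild type in log2 signal; bars are ± SE, n = 2 pools per strain) of the mast cell protease probes, other mast cell genes and other serine proteases of chromosome 17 (y axis, gene and probe). Cpa3 lies lowest at -0.66 and Prss34 highest at 1.16, and none of the probes passed in limma after adjustment.

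Other serine protease genes of chromosome 17 were taken from a list of 11, of which 10 had a probe. Values on all arrays were present for 4, on some arrays for 2, and on none for 4. None of the 4 passed in limma. Unadjusted p-values under 0.05 were found for 2 (15.8% of all probes), and 3 were higher and 1 lower in the congenic pools, with a median of 0.37. Prss34, the protease known as mMCP-11 that basophils and mast cells make, read 10.81 and 11.35 in congenic pools 1 and 2, against 9.80 and 10.04 in wild-type pools 1 and 2. Both congenic values were above both wild-type values, and the signal was 2.23-fold higher (1.16 ± 0.27, 95% interval 0.49 to 1.82; limma adjusted p = 0.1778). Of the other basophil genes listed, Mcpt8, Il4 and Il6 were blank on every array, and Cd200r3 read 10.95 in congenic pool 1 and was blank on the other arrays. The part of basophils in the Prss34 values was not tested. Prss32 read 13.00 and 13.14 in the congenic pools, against 12.37 and 12.67 in the wild-type pools, without overlap (0.55 ± 0.14; limma adjusted p = 0.1879). Prss27, a serine protease also called marapsin or pancreasin, lay the other way, also without overlap (-0.40 ± 0.17). It read 10.84 and 10.94 in the congenic pools, against 11.28 and 11.29 in the wild-type pools. Prss29 overlapped and differed by 0.20 ± 0.36 (-0.14 without congenic pool 2). The pools thus did not overlap for 3 of the 4 genes, against 49.4% of all probes. Tpsg1, which encodes the membrane-anchored gamma tryptase, had a value in wild-type pool 2 alone (9.14), and Prss28 had none on any array.

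In gene order on chromosome 17, Prss34, Prss28 and Prss29 precede Tpsab1, and Tpsb2 and Tpsg1 follow it. The 4 nearest other genes measured on all arrays on each side were Unkl, Gnptg, Prss34 and Prss29 before the pair, and Cacna1h, Lmf1, Gng13 and Chtf18 after it. None of these 8 passed in limma. Unadjusted p-values under 0.05 were found for Prss34 and Lmf1, and 5 were higher and 3 lower, with a median of 0.13 and a range of -0.31 to 1.16. Lmf1, a maturation factor of lipases, was the second of these (0.44 ± 0.099; limma adjusted p = 0.1773). Over 30 genes with a probe around Tpsab1, 14 before it and 15 after it, 23 were compared, 13 were higher and 10 lower, and none passed in limma. Among these 23, limma gave an unadjusted p under 0.05 for Nubp2, Telo2, Clcn7, Prss34, Lmf1 and Metrn, all higher in the congenic pools. It did so too for Igfals, Antkmt, Wdr24 and Stub1, all lower, and 15.8% of all probes reached such a p. The difference of greatest size among the 23 was that of Igfals, a subunit of the circulating complex that carries insulin-like growth factors. Igfals read 9.37 and 8.78 in congenic pools 1 and 2, against 10.82 and 11.44 in wild-type pools 1 and 2, without overlap (-2.05 ± 0.35; limma adjusted p = 0.1141). These values are dim, the probe was not kept when dim probes were left out, and 49.4% of all probes did not overlap.

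**Figure D4:**
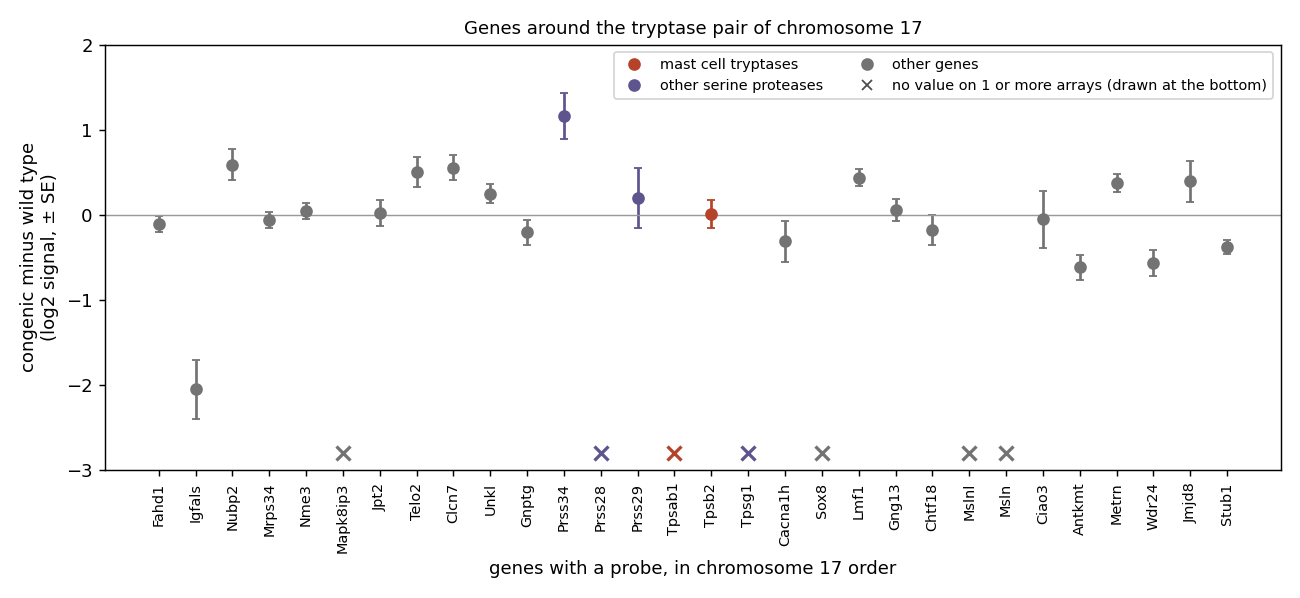
Strain differences (y axis, congenic minus wild type in log2 signal, ± SE) of 30 genes with a probe around Tpsab1, in chromosome 17 order (x axis, gene symbols, not to scale); crosses mark genes with no value on 1 or more arrays. Tpsb2 lies at 0.0059, Prss34 is highest at 1.16 and Igfals lowest at -2.05, with 13 genes above zero and 10 below.

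Outside chromosome 17, the genes next to the members gave 1 call. Cpb1, a pancreatic carboxypeptidase gene that follows Cpa3 in order among genes measured, rose 5.62-fold (2.49 ± 0.16; limma adjusted p = 0.003078), while Cpa3 itself had the opposite sign. Cpb1 did not pass without congenic pool 1 or without congenic pool 2 (limma adjusted p = 0.06990 and 0.05909). All 6 neighbours of Cpa3 had positive differences, with a median of 0.27. Around the chymases of chromosome 14, none of 6 neighbours passed in limma and none had an unadjusted p under 0.05, with 2 higher, 4 lower and a range of -0.39 to 0.15. Within the chymase and granzyme cluster itself, Gzmf was measured on all arrays and differed by -0.029 ± 0.18, with a positive sign without congenic pool 2 (0.014) or without wild-type pool 1 (0.25). Mcpt8, Ctsg, Cma2, Gzmg and Gzmn were blank on every array. Gzmb, a granzyme of cytotoxic cells, read 8.77 and 10.93 in congenic pools 1 and 2 and had no value in either wild-type pool.

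Genes of other cells were read beside the members. In the exocrine pancreas list, 12 of 14 measured genes were higher and 2 lower in the congenic pools. Of these, 10 passed in limma as higher, 0 passed as lower and 4 did not pass (0.475% of all probes passed). Summed log2 values were 226.9 and 226.1 in congenic pools 1 and 2, against 204.9 and 204.4 in wild-type pools 1 and 2. In the skeletal muscle list, all 8 measured genes were lower in the congenic pools. Of these, 3 passed in limma and 5 did not pass. Summed log2 values were 101.1 and 101.3 in the congenic pools, against 109.7 and 110.6 in the wild-type pools. The pancreas count was 5 without congenic pool 1 and 6 without congenic pool 2, and the muscle count 1 without congenic pool 1 and 2 without congenic pool 2. The part of these tissues in the Tpsab1 and Cpa3 values was not tested. Ctrl, a pancreatic chymotrypsin-like protease gene, shared the blank pattern of Tpsab1, with 12.79 and 12.85 in the congenic pools and no value in the wild-type pools. Of the T and natural killer cell list, 2 genes were measured on all arrays, and 1 of them passed. The list was otherwise mostly blank: Cd3d, Cd3e and Cd3g had a value on 1 array each, Cd4 on 2, and Gzma and Klrb1c on none. The part of T cells in the Cd5 values was not tested. Cd5, whose product sits on the surface of T cells, read 16.53 and 16.66 in the congenic pools, against 17.95 and 17.73 in the wild-type pools (-1.25 ± 0.10; limma adjusted p = 0.00907). It missed the threshold when congenic pool 1 (limma adjusted p = 0.1022), congenic pool 2 (0.07014) or the variance trend (0.1203) was left out, while Nkg7, a granule protein gene of cytotoxic cells, differed by 0.43 ± 0.23. Macrophage genes gave 0 of 7 past the threshold in limma and 0 with an unadjusted p under 0.05, with a median of -0.012. Of cytokines and receptors of type 2 immunity, which drives mast cell growth in mucosa, 4 of 12 were measured on all arrays. None of these passed in limma, none had an unadjusted p under 0.05, and all 4 differences were negative, with a median of -0.18. They were Il33 (-0.041 ± 0.094, and positive without congenic pool 2 or without wild-type pool 2, at 0.037 and 0.042), Il4ra, Il13ra1 and Tgfb1, and Il4, Il5, Il13, Il10, Il9r and Tslp were blank on every array.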

How the data were processed

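Total RNA was extracted with TRIzol and transcribed into digoxigenin-labelled cRNA for chemiluminescent detection, per the labels' protocols. Values deposited by the authors are log2 signals, one for each probe on each array. How they were normalized, which log base applies and why cells are blank is not given in the sources used here. Base 2 was taken from the spread of values (6.73 to 21.2), and all differences assume it. The number of arrays limits the precision. The spread behind each p-value is that of pools of 3 mice.

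Groups and pool numbers came from the sample titles. Gene symbols of probes came from the platform annotation, and RefSeq (GRCm38.p6) gave chromosomes, gene order, gene class and promoter windows, with no coordinates for probes. Array medians over the 13475 compared probes lay between 12.819 and 12.824, so no scaling was added. Strains were compared with the moderated two-sided test of limma 3.58.1 (R 4.3.3; variance trend on, 3.97 prior and 2 residual degrees of freedom), adjusted by Benjamini-Hochberg over all probes. An exact permutation test over 2 against 2 pools cannot go below 0.333. The fit was tested on simulated data.

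The members, lists and naming rule were chosen with earlier results of these data known. All members were named. From the lists of mast cell genes and protease clusters, up to 4 genes by p were named, and other lists are given mainly as counts. Where a gene had several probes, lists used the one with the highest mean. H2-Ea, Ctrl, Gzmb, Rgs13, Slc6a4, Gata2, Igfals and the blank genes were named after their values were seen. So were Nubp2, Telo2, Clcn7, Metrn, Antkmt, Wdr24 and Stub1, by their unadjusted p in limma. Alternatives were other variance models, quantile normalization, median centring, leaving out dim probes, allowing 1 blank, the replicate block, leaving out each pool, and a threshold of 0.10. Figures used matplotlib 3.10.9.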

Additional observations from a re-analysis of the deposited data

Results flagged for a closer look

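Tpsab1 and Gzmb were the genes of the mast cell and protease lists with a value in both congenic pools and none in either wild-type pool, which kept them out of the strain comparison. Slc6a4, of the mast cell list, had the reverse pattern, with 8.90 and 9.27 in wild-type pools 1 and 2 and no value in either congenic pool. The mean of the congenic pools was 11.95 for Tpsab1 (probe 742202) and 9.85 for Gzmb (probe 884118). The congenic values of Gzmb were 8.77 and 10.93, while those of Tpsab1 differed by 0.080. At the level of Gzmb, between 9 and 10, 212 of 882 probes with both congenic values (24.0%) had no wild-type value, against 37 of 2808 (1.32%) between 11 and 12, where Tpsab1 lies. The cause of the blanks was not tested.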

How the results depend on the processing

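None of the member probes passed in limma under any of the 11 other fits run (variance models, scaling, filters, replicate block, leaving out each pool), and the lowest adjusted p of a member in any fit was 0.1926. The sign of Tpsb2 was the only member sign that changed, with values between -0.22 and 0.24 when 1 pool was left out. The count of 64 probes was 20 without the variance trend (13 higher, 7 lower), 35 with the replicate block (23 higher, 12 lower), 110 at a threshold of 0.10, and between 15 and 168 when 1 pool was left out. The replicate block rests on a shared number only: deviations of same-numbered pools correlated at -0.064, and the labels name no shared batch. The median of the other mast cell genes was 0.019 over the 3 left when dim probes were left out, and between -0.16 and -0.0092 when 1 pool was left out. The median of the serine proteases of chromosome 17 lay between 0.17 and 0.57 when 1 pool was left out, and had no value without dim probes, since none of the 4 was kept. The cause of these shifts was not tested, beyond fewer genes under the filter. Of the members, 2 probes (Tpsb2 and Mcpt2) were kept by that filter, and signal over background is unknown.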

Other observations

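H2-Ea, the alpha chain gene of the class II molecule I-E, was the other named chromosome 17 probe that had both congenic values at or above the level of Tpsab1 and no wild-type value. It read 12.94 and 12.75 in congenic pools 1 and 2. RefSeq classes H2-Ea, like Tpsab1, as a transcribed pseudogene in the C57BL/6J assembly. Of 24 probes whose single gene has that class, 12 had a value in both congenic pools, and for 2 of these, H2-Ea and Tpsab1, both wild-type pools were blank. Over all probes with both congenic values, 419 of 15101 (2.77%) had this pattern. The reverse pattern was seen for 1 of the 24, a count over all of them that includes 5 blank on every array. Over all probes with both wild-type values it was 198 of 14292 (1.39%), so these shares have unlike bases. H2-Ea was named after its values were seen, and Tpsab1 was chosen with earlier results known. The count therefore only describes these genes, and a link between the class and the blanks was not tested. On chromosome 17, 3 probes have that class, and the third, H2-Bl, had a value in congenic pool 1 alone (8.98).

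Among named probes elsewhere with the same blank pattern and a congenic mean at or above that of Tpsab1 were 2310057J18Rik, Ctrl, Hfe, Hpd and Saa2. Hfe, an iron-regulating relative of class I molecules, read 12.20 and 12.18 in congenic pools 1 and 2, and Saa2, an acute-phase protein gene, read 11.89 and 12.06. These values are given without an explanation.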
